A study of Homo sapiens with 4 samples.

Results

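To ask how the building blocks of the neuronal cytoskeleton were expressed when AP1AR-DT was raised, a set of neurofilament and neurite growth genes was followed in RNA-seq libraries of the human neuroblastoma line SK-N-SH. The set was defined by gene symbol and lists 10 genes, namely NEFL, NEFM, NEFH, INA, MAP2, MAPT, MAP1B, STMN2, GAP43 and DCX. Of these, 9 matched a row among the 24014 genes of the count table, and NEFL was not analysed here. The control group was 2 libraries of wild-type SK-N-SH cells infected with an empty lentiviral vector. The AP1AR-DT_OE group was 2 libraries of SK-N-SH cells infected with a recombinant lentivirus that carries AP1AR-DT, a long non-coding RNA also called AC109347.1. The genotype and treatment labels of the second AP1AR-DT_OE library name the RNA as AC109347.2, while its title gives AC109347.1, and the title was followed. Both groups are bulk cultures of 1 cell line under viral infection, so fewer cells of a type and less RNA per cell cannot be told apart. The labels do not say whether the libraries of a group came from separate cultures, and p-values measure only the spread between these libraries.

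Neurons hold their long processes open with neurofilaments, which are intermediate filaments assembled from light, medium and heavy chains together with alpha-internexin. Microtubules run alongside them and are bound by proteins that stabilize or bundle them, MAP2 mostly in dendrites, tau mostly in axons, and MAP1B and doublecortin in growing or migrating neurons. Stathmin 2 and GAP43 are enriched in growth cones, where stathmin 2 binds tubulin and promotes microtubule turnover and GAP43 acts at the membrane. Neuroblastoma lines descend from sympathetic neuroblasts, and many of these genes are used as markers of their neuronal character.

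The libraries held between 21988065 and 26184599 counts, and AP1AR-DT itself had 3 and 18 counts in the controls against 680 and 1065 in AP1AR-DT_OE (Log2FC = 6.63, SE = 0.64, DESeq2 Wald test, adjusted p = 3.64e-21), in the direction of the labels. The labelled cell type was checked against its markers. The sympathetic lineage regulator HAND2 had 12211 to 15659 normalized read counts, and 9 of the 10 adrenergic neuroblast markers with a row had a mean of at least 50. All 12 mesenchymal neuroblastoma markers reached this level. Of all 24014 genes tested, DESeq2 called 0.137% at an adjusted p under 0.05, and 0.816% had an unadjusted p under 0.05. Among the markers it called 0 of the 10 adrenergic and 0 of the 12 mesenchymal ones (0 and 1 at an unadjusted p under 0.05). Their summed level ran from 25158 to 31356 in control and from 27603 to 30117 in AP1AR-DT_OE for the adrenergic markers, and from 159797 to 214876 and from 174764 to 212859 for the mesenchymal ones. VIM, COL1A1 and FN1 hold much of the mesenchymal sum, with 93086, 50838 and 31046 normalized counts in control 1. The mesenchymal transcription factor PRRX1 was the one with the largest fitted difference (2769.9 and 11358 normalized counts in control, against 1241 and 2246 in AP1AR-DT_OE, Log2FC = -2.02, SE = 0.61, DESeq2 adjusted p = 0.431), and DESeq2 called it after GC correction (adjusted p = 0.00114). PRRX1 was also called without the first control library (Log2FC = -2.71, adjusted p = 4.24e-06), while without the second its Log2FC was -0.66 (adjusted p = 0.999). The next largest differences were those of SNAI2 among the mesenchymal genes (Log2FC = -0.41, SE = 0.57) and of DBH (Log2FC = 0.23, SE = 0.48) and CHGB (Log2FC = 0.14, SE = 0.51) among the adrenergic ones. Of the 8 glial and Schwann cell markers 5 had a row, 1 of them with a mean of at least 50, and they summed to between 119 and 165 normalized counts.

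Libraries of the same group differed from each other along base composition, and this touches each value below. Among genes with a mean of at least 50, GC-rich transcripts were lower in the second control library relative to the first (Spearman's rho = -0.77 between GC content and log2 ratio over 13284 genes, which share their libraries and are no replicates). The second AP1AR-DT_OE library stood in the same relation to the first one (rho = -0.65). The labels do not call the number a batch. The genes of the set cover only part of the GC range, from 41.8% for STMN2 to 57.8% for NEFH in the longest transcript.

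No difference between AP1AR-DT_OE and control larger than the spread between libraries was found for any of the 9 genes. By the DESeq2 Wald test 0 of the 9 were called at an adjusted p under 0.05, where 0.137% of the 24014 genes tested were called (0.0833% higher and 0.0541% lower), and 0 of the 9 had an unadjusted p under 0.05, where 0.816% of genes did. The edgeR quasi-likelihood test likewise gave 0 of 9 at an adjusted p under 0.05 and 0 of 9 at an unadjusted p under 0.05 (0% and 0.658% of the 17027 genes it tested). The Log2FC lay between -0.29 and 0.10 and its SE between 0.43 and 0.72. It was below 0 for 8 of the 9 genes, against 54.9% of the 13298 genes with a mean of at least 50, and its median was -0.10 against -0.02 for those genes and -0.03 for all genes tested. The count of 8 rested on the choice of libraries: it was 9 without the second AP1AR-DT_OE library and 3 without the first, and 6 without the first control library and 3 without the second. The groups overlapped for all 9 genes, whereas they did not overlap for 9.45% of the genes with a mean of at least 50. These values do not show that expression was equal, since the 95% intervals of the 9 Log2FC values together reached from -1.65 to 1.21.

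**Figure D1:**
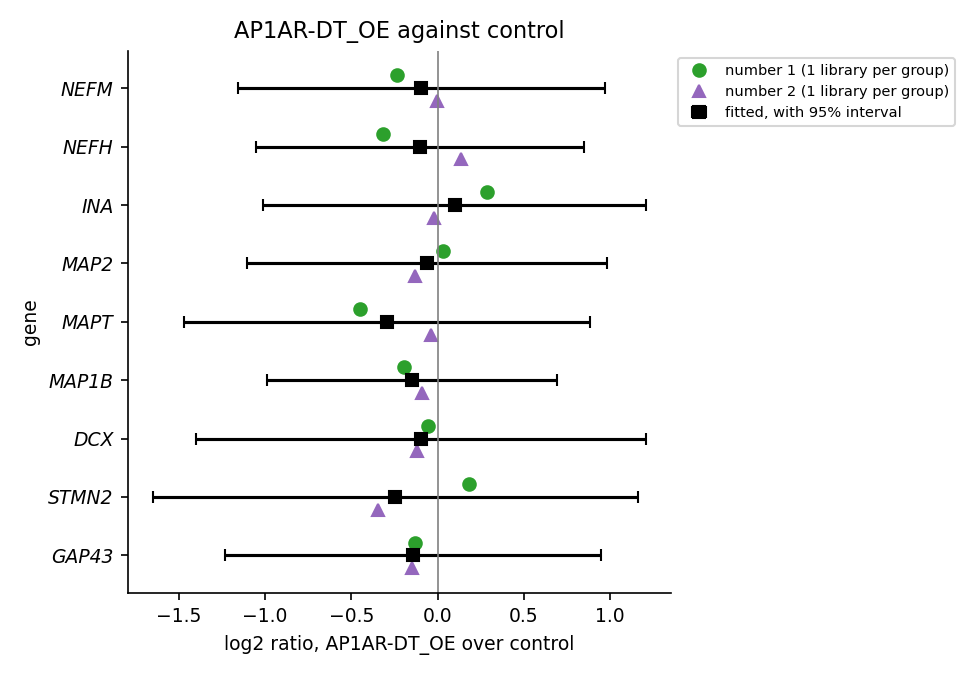
Log2 ratio of AP1AR-DT_OE over control for each gene (rows). Black squares are the DESeq2 estimates with their 95% intervals, all of which include 0, and green circles and purple triangles are the ratios of the single libraries numbered 1 and 2, which lie between -0.45 and 0.29.

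The neurofilament chains were examined first. NEFH, the heavy chain with the long phosphorylated tail (ENSG00000100285; chromosome 22, 29480218 to 29491390, GRCh38 as in the table), had 497 and 379.5 normalized read counts in control, against 399 and 417 in AP1AR-DT_OE. Both AP1AR-DT_OE values lay between those of the controls, at 408 ± 12.4 against 438 ± 82.8 (SD, n = 2; Log2FC = -0.10, SE = 0.48, 95% interval -1.05 to 0.85). NEFM, the medium chain (ENSG00000104722; chromosome 8, 24913758 to 24919098), had 236 and 331 in control, against 201 and 331 in AP1AR-DT_OE, so that the second libraries of the groups were level and the first differed by a log2 ratio of -0.23. Its means were 283 ± 67.3 and 266 ± 91.8 (SD, n = 2; Log2FC = -0.09, SE = 0.54, 95% interval -1.16 to 0.97).

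INA, which encodes alpha-internexin, a filament subunit of early neurons (ENSG00000148798; chromosome 10, 103277138 to 103290346), was the only one of the 9 genes with a Log2FC above 0. It had 146 and 239.9 normalized counts in control, against 178 and 236 in AP1AR-DT_OE, both within the range of the controls (193 ± 66.6 against 207 ± 41.4, SD, n = 2; Log2FC = 0.10, SE = 0.57, 95% interval -1.01 to 1.21). Its log2 ratio between the groups was 0.29 for the first libraries and -0.02 for the second. Exons of INA overlap those of NT5C2, a nucleotidase gene on the opposite strand, which had 66, 482, 67 and 90 counts in control 1, control 2, AP1AR-DT_OE 1 and AP1AR-DT_OE 2. NEFM likewise overlaps a non-coding RNA on the opposite strand (ENSG00000272163), with 15 to 43 counts, and NEFH another (ENSG00000282816). Whether counting used the strand is not stated, so reads of such partners cannot be told apart.

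Per kilobase of transcript, the heavy chain stood above alpha-internexin in every library, with ratios of NEFH over INA of 2.92 and 1.36 in control, against 1.92 and 1.51 in AP1AR-DT_OE. NEFH over NEFM was 1.82 and 1.71 in the first libraries but 0.989 and 1.09 in the second ones. The order of the heavy and medium chains therefore did not hold in control 2. PRPH, the gene of peripherin, a filament protein of peripheral neurons, was low, at 25.1 and 6.17 normalized counts in control and 14.3 and 40.7 in AP1AR-DT_OE.

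The microtubule-associated proteins differed widely in level, and no difference between the groups was called for any of them. MAP1B (ENSG00000131711; chromosome 5, 72107234 to 72209565), which binds microtubules in growing axons, had the highest counts of the set, with 9216 and 7446 normalized counts in control, against 8053 and 6999 in AP1AR-DT_OE. The second AP1AR-DT_OE library was the lowest and the first lay between the controls (8331 ± 1252 against 7526 ± 745, SD, n = 2; Log2FC = -0.15, SE = 0.43, 95% interval -0.99 to 0.69). This was the narrowest of the 9 intervals, and its lower bound corresponds to 0.505-fold of control and its upper one to 1.62-fold. MAP2, the dendritic protein (ENSG00000078018; chromosome 2, 209424047 to 209734118), had 198 and 262 in control, against 203 and 239 in AP1AR-DT_OE. Both AP1AR-DT_OE values lay within the range of the controls (230.2 ± 45.3 against 221 ± 25.7, SD, n = 2; Log2FC = -0.06, SE = 0.53, 95% interval -1.10 to 0.98).

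MAPT, the gene of tau (ENSG00000186868; chromosome 17, 45894527 to 46028334), had the largest fitted difference of the set in size, which was still within the spread of the controls. It had 263 and 134 normalized counts in control, against 193 and 131 in AP1AR-DT_OE (199 ± 91.1 against 162 ± 43.9, SD, n = 2; Log2FC = -0.29, SE = 0.60, unadjusted p = 0.627 and adjusted p = 1 by DESeq2). Its log2 ratio between the groups was -0.45 for the first libraries and -0.03 for the second, and the Log2FC turned to 0.27 without control replicate 1. Before GC correction, MAPT was the only gene of the set lower in the second library of both groups by over 1.4-fold. In number 2 MAPT stood at 0.510 of its level in number 1 in control and 0.679 in AP1AR-DT_OE. Its exons overlap the antisense RNA MAPT-AS1, for which no row was used here.

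DCX, the gene of doublecortin, a bundling protein of migrating neurons (ENSG00000077279; chromosome X, 111293779 to 111412429), had the lowest counts of the set. It had 69 counts in control 1 and in AP1AR-DT_OE 1. In normalized counts it had 78.6 and 133 in control, against 75.7 and 123 in AP1AR-DT_OE, where the first libraries were low and the second high in both groups (106 ± 38.8 against 99.4 ± 33.5, SD, n = 2; Log2FC = -0.10, SE = 0.67, 95% interval -1.40 to 1.21). An interval of this width does not exclude a 2-fold difference in DCX.

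The growth cone genes STMN2 and GAP43 varied most between libraries of the same group. STMN2 (ENSG00000104435; chromosome 8, 79611117 to 79666158) had 248 and 1837 counts in control, against 292 and 1123 in AP1AR-DT_OE, or 282, 1417, 320.3 and 1115 normalized counts. The second library exceeded the first by 5.02-fold in control and by 3.48-fold in AP1AR-DT_OE, while both AP1AR-DT_OE values stayed inside the range of the controls. The means were 849.7 ± 802 and 717 ± 562 (SD, n = 2; Log2FC = -0.24, SE = 0.72, 95% interval -1.65 to 1.16), with log2 ratios between the groups of 0.18 for the first libraries and -0.35 for the second. The sign of the STMN2 difference rested on single libraries, with a Log2FC of -0.99 without the first control library and 1.36 without the second, and of 0.39 without the first AP1AR-DT_OE library and -1.43 without the second.

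GAP43, the growth-associated protein of regenerating axons (ENSG00000172020; chromosome 3, 115623510 to 115721490), had 477 and 986 normalized counts in control, against 435 and 891 in AP1AR-DT_OE. Its second library exceeded its first by 2.07-fold in control and 2.05-fold in AP1AR-DT_OE, and the ratio of AP1AR-DT_OE over control was nearly the same in the numbers, at -0.13 and -0.15 on the log2 scale. The means were 732 ± 359.6 and 663 ± 322 (SD, n = 2; Log2FC = -0.14, SE = 0.56, 95% interval -1.23 to 0.95). Only STMN2 and GAP43 of the 9 genes were at least 2-fold higher in the second library of both groups, as were 8.51% of the genes with a mean of at least 50.

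**Figure D2:**
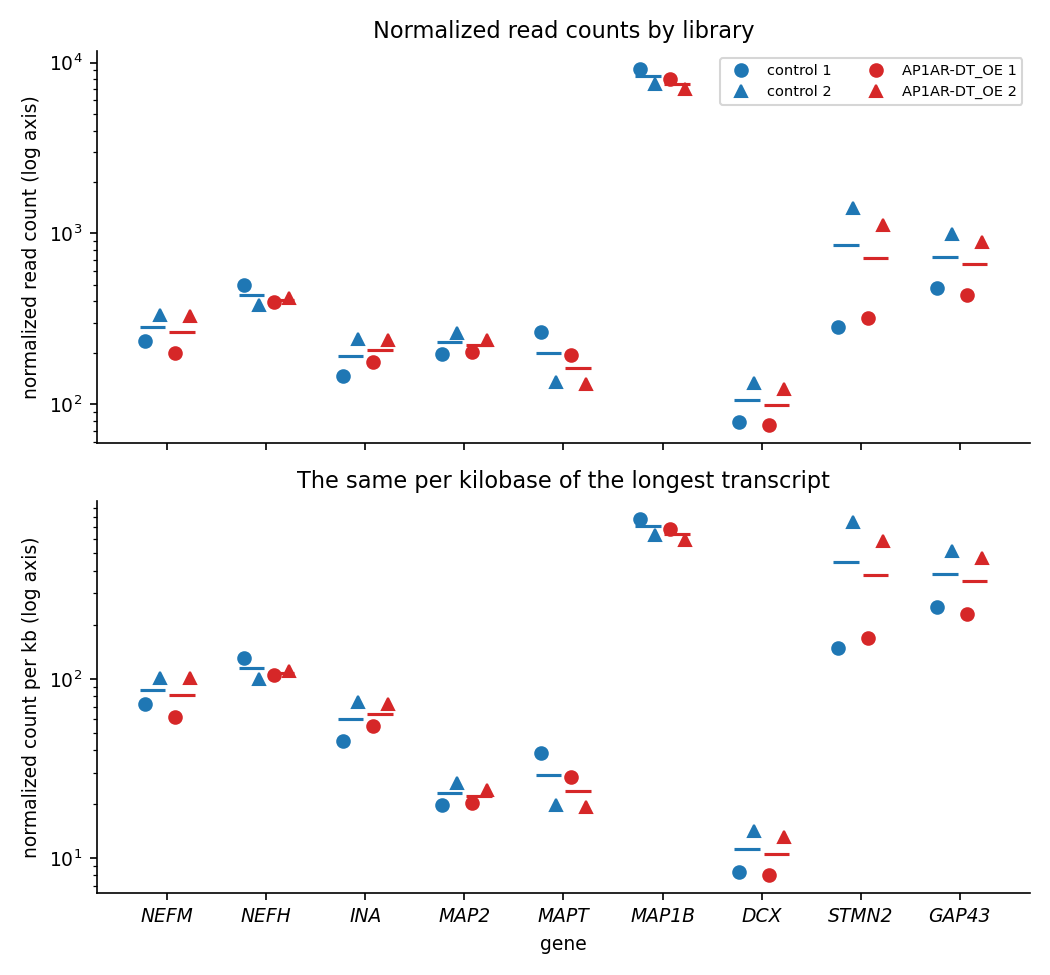
Normalized read counts (top) and the same per kilobase of the longest transcript (bottom), both on log axes, for each gene and library; blue marks control, red AP1AR-DT_OE, circles the first and triangles the second library, and bars the mean of 2 libraries. The circles and triangles of STMN2 lie 5.02-fold apart in control, and red and blue symbols overlap for all 9 genes.

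Levels were then compared between genes per kilobase of the longest transcript. MAP1B was the highest by mean, where 707 ± 106 normalized counts per kilobase (SD, n = 2, as for the values that follow) were found in control against 638 ± 63.2 in AP1AR-DT_OE, followed by STMN2 (447 ± 422 and 377 ± 295) and GAP43 (385 ± 189 and 349 ± 169.6). The STMN2 values overlapped those of both others, and STMN2 exceeded MAP1B in control 2 (745 against 632), while the lowest MAP1B library (594) lay above the highest GAP43 library (519). All of them lay above NEFH (115 ± 21.8 and 108 ± 3.28), whose highest library reached 131 where the lowest GAP43 library had 229. The STMN2 minimum was 148, also above it.

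Below them, the filament genes NEFM (86.6 ± 20.6 and 81.2 ± 28.1) and INA (59.3 ± 20.5 and 63.7 ± 12.7) overlapped with their neighbours, the lowest INA library having 44.8. MAPT (29.15 ± 13.4 and 23.8 ± 6.44) and MAP2 (23.0 ± 4.53 and 22.1 ± 2.56) were not separated from each other but lay below INA in all libraries. DCX was the lowest in all 4 libraries (11.3 ± 4.12 and 10.6 ± 3.56). MAP1B made up 52.3% and 50.3% of the summed per-kilobase level of the set in the first libraries but 28.3% and 29.9% in the second ones. The longest annotated transcript need not be the one used in these cells.

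How far the split by number followed base composition was then described for the set. Of the 9 genes, 6 were higher in the second library of both groups, namely NEFM, INA, MAP2, STMN2, GAP43 and DCX. Over the 9 genes, GC content and the log2 ratio of the second over the first library had Spearman's rho = -0.68 in control and -0.50 in AP1AR-DT_OE, and the ratios of the groups followed each other with rho = 0.93. These are descriptions over 9 genes that share 4 libraries. The median size of the log2 ratio between the controls was 0.72 for the set, and 0.56 between the AP1AR-DT_OE libraries. The median size of the Log2FC between the groups was 0.10. Over all genes with a mean of at least 50 the same medians were 0.72, 0.42 and 0.12.

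With a smoothed GC trend taken out of each library, the second library still exceeded the first for STMN2, by 2.70-fold in control and 2.37-fold in AP1AR-DT_OE, and for GAP43, by 1.87-fold and 1.99-fold. For NEFM it did so by 1.85-fold and 1.94-fold, and for INA by 1.95-fold and 1.49-fold. MAP2 turned to 0.75 and 0.84, so that it was no longer higher in the second libraries. DCX, at 0.949 and 1.14, was near level after the correction. MAPT stood at 0.794 and 0.840 after it, and NEFH at 1.21 and 1.30. MAP1B, with a GC content of 44.4%, lay below the median of genes of like GC content and stood at 0.538 and 0.694 after correction. For the adrenergic markers with a mean of at least 50, the median log2 ratio of the second over the first library was -0.27 in control and 0.07 in AP1AR-DT_OE. HAND2 holds much of their sum. ISL1, a sympathetic transcription factor among these markers, had 261 and 582 normalized counts in control, against 315 and 491 in AP1AR-DT_OE. The part of these markers in the split by number was not tested.

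**Figure D3:**
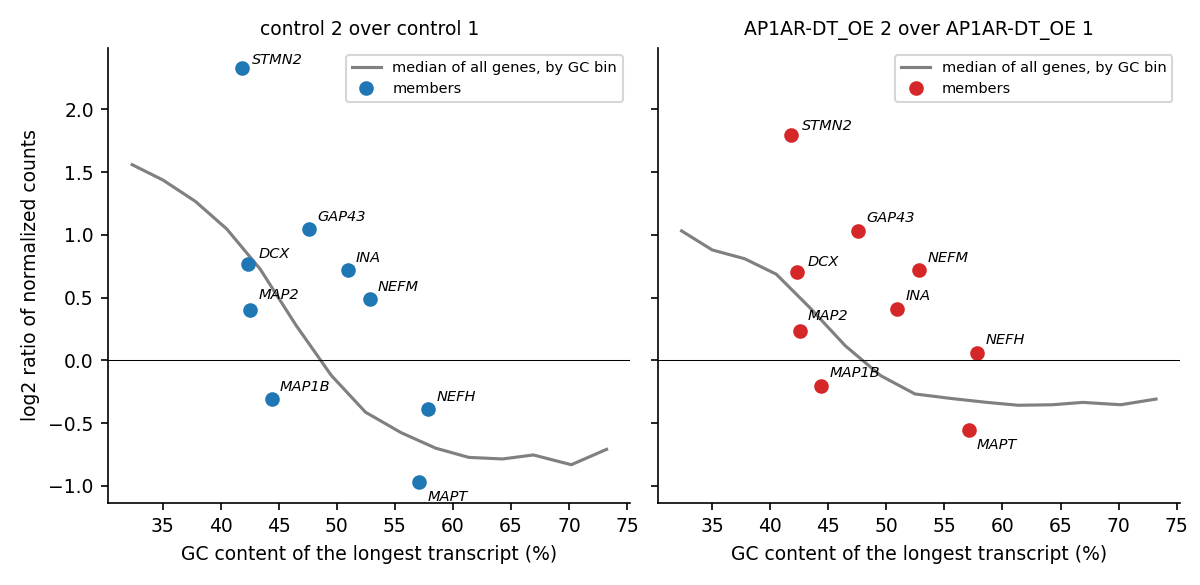
Log2 ratio of the second over the first library against the GC content (%) of the longest transcript, in control (left) and AP1AR-DT_OE (right); points are the genes of the set and the grey line is the median of all genes with a mean of at least 50 in bins of GC content. STMN2 lies at 2.33 and 1.80, above the line, and MAP1B at -0.31 and -0.20, below it.

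Compared within each number, where there is 1 library per group and no test, AP1AR-DT_OE was lower than control for 6 of the 9 genes in number 1 (median log2 ratio -0.13, range -0.45 to 0.29) and for 8 of 9 in number 2 (median -0.09, range -0.35 to 0.14). It was lower in both for 5 genes (NEFM, MAPT, MAP1B, DCX and GAP43), against 19.8% of the genes with a mean of at least 50, and higher in both for 0, against 18.4%. NEFM is counted here for a log2 ratio of -0.0018 in number 2.

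The wider cytoskeleton was examined through 7 lists covering other intermediate filaments, tubulins, other microtubule-associated proteins, other stathmins with the doublecortin-family kinases, further growth cone proteins, kinases that act on filaments and microtubule proteins, and axonal motors. They name 98 genes, of which 96 had a row and 83 a mean of at least 50. By DESeq2 0 of the 96 were called and 0 had an unadjusted p under 0.05, against 0.137% and 0.816% of all 24014 genes. The edgeR test called 0 of them, but it called 0 of all 17027 genes it tested. Of the 83, the groups did not overlap for 5, or 6.02%, against 9.45% of all such genes, and their median Log2FC was 0.02.

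All 11 tubulin genes with a row had a Log2FC above 0, from 0.05 to 0.41 with a median of 0.11, and 9 of them were higher in AP1AR-DT_OE in both numbers, where 45.1% and 18.4% of the genes with a mean of at least 50 were so. The count of 11 fell to 3 without the second control library (median -0.06) and to 5 without the first AP1AR-DT_OE library (median -0.04), and was 11 without either of the others. TUBB3, the neuronal beta-tubulin, had 24552 and 16487 normalized counts in control, against 24369 and 18866 in AP1AR-DT_OE (Log2FC = 0.08, SE = 0.45, DESeq2 adjusted p = 1). The largest values were those of TUBA1C (Log2FC = 0.41, SE = 0.53), whose groups did not overlap, and TUBG1, the centrosomal gamma-tubulin (Log2FC = 0.19, SE = 0.46). Several tubulin genes are near-identical in sequence, so the division of reads among them is uncertain. A second row with the symbol TUBB3 is a readthrough transcript of MC1R and TUBB3 (ENSG00000198211), with 930 counts in AP1AR-DT_OE 2 and 0 in the remaining 3 libraries. It was called (DESeq2 adjusted p = 0.00105) on that 1 library, no value could be fitted without it, and it was not called with counts divided by 4 (adjusted p = 1). Summed with TUBB3, the counts were 21557 and 21373 in control, against 22216 and 19938 in AP1AR-DT_OE.

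Genes of the same families as the set were not called either. STMN1, the ubiquitous stathmin, had 3918 and 6627 normalized counts in control, against 5252 and 6364 in AP1AR-DT_OE (Log2FC = 0.14, SE = 0.46), and DCLK1, a doublecortin-like kinase, a Log2FC of -0.19 (SE = 0.62). Among the intermediate filaments SYNM, which encodes synemin, had a Log2FC of -0.21 (SE = 0.45) and LMNA, the lamin A/C gene, one of 0.17 (SE = 0.47), while the median of the 8 genes with a mean of at least 50 was 0.02. The largest values among the other microtubule-associated proteins were those of MAP9 (Log2FC = -0.88, SE = 0.93) and CAMSAP3, which binds microtubule minus ends (Log2FC = 0.51, SE = 0.64).

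In the growth cone list, the 11 genes with a mean of at least 50 had Log2FC values from -0.31 to 0.14, the lowest that of NRN1, neuritin (SE = 0.55), followed by ENAH, an actin regulator (Log2FC = -0.14, SE = 0.48). Among the kinases, MAPK8, also known as JNK1, had a Log2FC of -0.52 (SE = 0.63) and MARK3, a tau kinase, one of -0.46 (SE = 0.49), with 596 and 843 normalized counts of MARK3 in control, against 430.0 and 617 in AP1AR-DT_OE. Among the motors and adaptors, KIF21A had a Log2FC of -0.76 (SE = 0.90), which was -2.34 without the second AP1AR-DT_OE library and -0.03 without the first. NDE1, a dynein adaptor, had 1466 and 899 in control, against 904 and 626 in AP1AR-DT_OE (Log2FC = -0.63, SE = 0.49, DESeq2 unadjusted p = 0.198 and adjusted p = 1). After GC correction the unadjusted p of NDE1 was 0.033 and the adjusted p was 1. With a block for the replicate number as well, the DESeq2 unadjusted p was 0.00236 and the adjusted p 0.537. None of these passed the test at an adjusted p under 0.05.

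**Figure D4:**
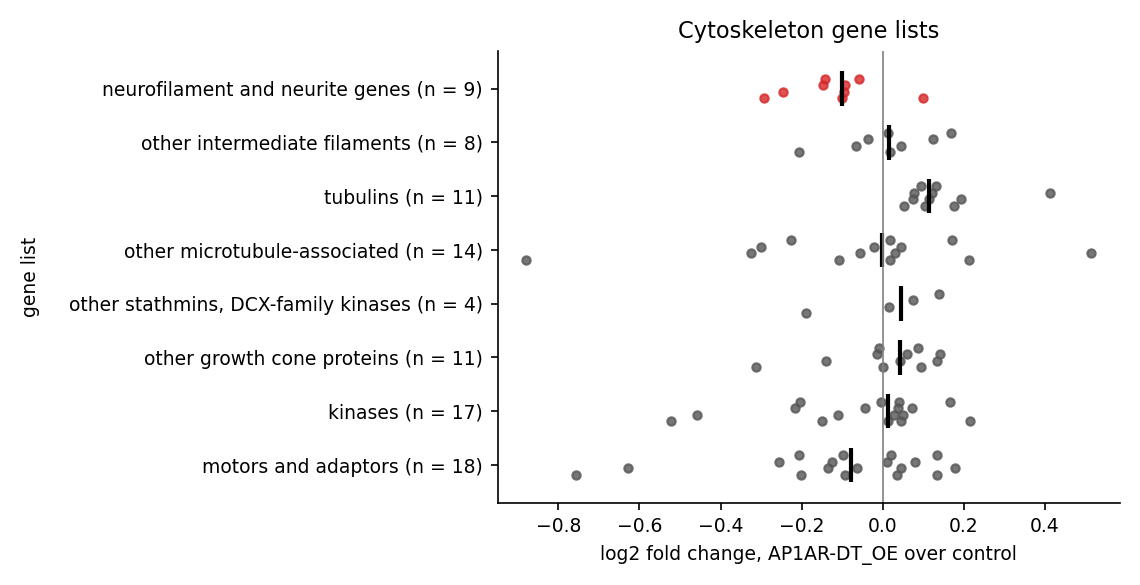
Log2FC of AP1AR-DT_OE over control for the 9 neurofilament and neurite genes (red) and for the genes of 7 further cytoskeleton lists whose normalized counts averaged 50 or more (grey); rows are lists and black bars medians. The medians run from -0.10 for the neurofilament and neurite genes to 0.11 for the tubulins.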

How the data were processed

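The study sequenced TruSeq RNA libraries made from total RNA of SK-N-SH cells as 150-bp read pairs. Per the paper's methods, the authors aligned reads to hg19 with HISAT2, ran StringTie and took gene counts with its Python script; the submitters' processing notes list TopHat2 2.0.4, HTSeq and edgeR 2.6.12 instead. The deposited table holds raw, whole-number counts, and the annotation is not given in the sources used here. Low values piled up at multiples of 4 (3287 entries at 4, against 2136 at 3 and 1509 at 5), so a count may not be 1 read pair, which was not tested. The table's coordinates are GRCh38 positions. Its columns of the authors' fold changes and p-values were not used.

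Counts of all 24014 genes were fitted with DESeq2 1.42.0 in R 4.3.3 (median-of-ratios size factors, Wald test, no covariate, default independent filtering), with Benjamini-Hochberg adjustment over all genes. Tests were two-sided. Intervals are 95% Wald intervals. Libraries were grouped and numbered by title. Length and GC content are those of the longest transcript in GENCODE v44 (23954 genes matched by ID). The set, the lists and the tests were chosen with earlier results of these data known. Genes named were the set, AP1AR-DT and, per list, called genes and the 2 largest absolute Log2FC values where the normalized counts averaged 50 or more. Some results that met this rule are not reported here. Others were named as lineage or family examples after their values were seen. A symbol on more than 1 row was taken from the row whose ID the reference pairs with it. Results were recomputed with edgeR 4.0.16 (quasi-likelihood), with TMM factors, keeping genes with 10 counts in 2 libraries, without independent filtering, and with a block for the replicate number, GC correction (lowess, span 0.3) with and without it, counts divided by 4, and each library left out. The fits were tested on simulated counts.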

Additional observations from a re-analysis of the deposited data

How the results depend on the processing

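No gene of the set was called under any of the 12 alternatives run, and the lowest unadjusted p was 0.421 with all libraries and 0.112 with 1 left out. Of the 72 values from alternatives that kept all libraries, 71 kept their sign; that of MAP2 was 0.0039 with GC correction and replicate block. The median Log2FC of the set lay between -0.13 and -0.09 in those 8 alternatives. Leaving out a library, which assumes that the lone library of its group varies like the others, gave medians from -0.25 to 0.21 and turned the sign in 15 of 36 values. The ranges were -0.51 to 0.22 for NEFM, -0.27 to 0.10 for NEFH, -0.22 to 0.52 for INA, -0.25 to 0.17 for MAP2, -0.69 to 0.27 for MAPT, -0.28 to 0.015 for MAP1B, -1.43 to 1.36 for STMN2, -0.76 to 0.49 for GAP43 and -0.50 to 0.35 for DCX. Over all genes the 33 calls became 0 with edgeR (112 by unadjusted p), 15 when counts were divided by 4, 55 with GC correction, 60 with GC correction and replicate block, and 45 to 90 with a library left out. AP1AR-DT kept its direction, with a Log2FC of 6.60 and no call by edgeR (adjusted p = 0.39) and of 6.02 to 8.05 with a library left out; the causes were not tested.

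Libraries with the same number deviated from their group means together (r = 0.49 across 13298 genes), but no label pairs them. The replicate block gave 37 calls, 16 of them among the 33, and a median Log2FC of -0.09 for the set. It did not call a gene of the set or of the cytoskeleton lists. The readthrough of TUBB3 was left without a call by the block (DESeq2 adjusted p = 1), as by counts divided by 4. PRRX1 was called with the block (DESeq2 adjusted p = 1.1e-07), with GC correction alone (0.00114) and with both (1.0e-14). With a library left out, Log2FC ranged from -0.38 to 0.0060 for SYNM, -0.34 to 0.53 for LMNA, -1.67 to 1.02 for MAP9, -0.47 to 0.18 for DCLK1, -0.19 to 0.58 for STMN1, -0.75 to 0.33 for NRN1, -0.51 to 0.36 for ENAH, -1.06 to 0.27 for MAPK8, -0.12 to 0.71 for DBH, -0.012 to 0.26 for CHGB and -0.78 to 0.083 for SNAI2; without a change of sign it ranged from -2.34 to -0.03 for KIF21A, -0.76 to -0.17 for MARK3, -0.93 to -0.23 for NDE1, 0.03 to 0.39 for TUBG1, 0.26 to 0.59 for TUBA1C and 0.32 to 0.75 for CAMSAP3. Of the 96 genes of the cytoskeleton lists, those with an unadjusted p under 0.05 were NDE1 with the replicate block (0.0186) and with GC correction, NDE1 and STMN1 with GC correction and replicate block, KIF3A, MAP1A and NDE1 without the second control library, and 0 in the other 8 alternatives. With 2 libraries a group, the narrowest interval in the set, that of MAP1B, still reached from 0.505-fold to 1.62-fold.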
